A study of Mus musculus with 8 samples.

Results

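The genes described here are 55 genes of mitosis and of the G2 phase that precedes it, taken from the RNA-seq tables by symbol from a fixed list: cyclins and kinases of mitotic entry, spindle checkpoint genes, kinetochore and centromere genes, kinesins, cytokinesis genes and condensin subunits. All 55 symbols were among the 24015 in the tables, and all 55 had enough reads to stand among the 12128 genes tested. The cells were wild type mouse embryonic fibroblasts (MEFs) of C57bl/6 background, from E12.5 embryos, at passages 15 to 18. The 2 untreated libraries were compared with 2 from cells that had received 100 units/mL of recombinant mouse interferon-beta (IFN-beta) for 6 h. IFN-beta is a type I interferon, secreted by virus-infected cells, and the study, built around an epitope-tagged H3.3 mouse, used it to follow transcripts and chromatin during a response. Replicates are numbered in the labels, which do not say that they were separate cultures. The p-values therefore rest on how far these libraries differ, which may be partly technical. Passaged MEFs divide in culture, and the labels give neither a cell count nor a cell cycle stage.

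Mitosis is started by Cdk1 bound to a B-type cyclin and is ended by the anaphase-promoting complex, a ubiquitin ligase that destroys the cyclins and securin. The transcripts of its genes accumulate in G2 and M, under B-MYB, FOXM1 and NF-Y, and are held down by the DREAM complex in resting cells. Type I interferons are known to slow the growth of many cell types. In bulk RNA, fewer cells in G2 and M and less transcript per cell cannot be told apart.

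The libraries held 18528700 to 24817300 gene counts (rounded to the nearest 100), and replicates differed by more than sampling noise. The treatment was visible in the interferon genes Ifit1 (24 and 30 counts untreated, 30774 and 39268 after IFN-beta, log2 fold change 10.60 ± 0.22 SE), Stat2 (61 and 98, then 1758 and 2579, 5.04 ± 0.20) and Irf9 (141 and 150, then 1616 and 1714, 3.77 ± 0.17), with adjusted p-values by edgeR of 1.92e-09, 7.6e-08 and 1.82e-07. Of 12 fibroblast markers, 11 were tested, and the 12 summed to 8201 to 9025 CPM (counts scaled to a common library size of 1e6 with TMM factors). Markers of blood cells summed to 16.5 to 23.5 CPM, of epithelium to 44.6 to 66.5 (nearly all Krt19) and of skeletal muscle to 3.59 to 7.43, and Myod1, Myog and Myf5 had 0 counts. Neural markers summed to 90.7 to 132.8 CPM, mainly from Nes, with Dcx and Gfap at 0 counts. Of these lists only the endothelial one held a called gene: Cdh5 had 2 and 6 counts untreated and 24 and 19 after IFN-beta, the 6 endothelial markers summed to 0.936 and 1.06 CPM against 3.14 and 2.02, Tie1 and Emcn were at 0 counts and Pecam1 had 0 to 2. Rn45s (ribosomal RNA precursor) and Lars2 took 5.91% and 7.48% of gene counts untreated and 14.4% and 12.9% after IFN-beta. What part either has in the members' values was not tested, beyond rescaling without Rn45s and Lars2, which left 2 members called higher and 3 lower.

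Most mitotic transcripts stayed within a narrow range after 6 h of IFN-beta, and a few moved in opposite directions. Pttg1, which encodes securin, and Cenpe, which encodes a kinetochore motor, rose. Hmmr, a spindle assembly factor, Depdc1a and Spc25, a subunit of the outer kinetochore, fell. These were the 2 members called higher and 3 called lower by edgeR's quasi-likelihood test at a Benjamini-Hochberg adjusted p below 0.05 over all genes, which is 3.64% and 5.45% of the 55. Among all tested genes 4.73% were called higher and 0.495% lower. The median log2 fold change was -0.14 over the members and -0.02 over all tested genes, and the members' lower and upper quartiles were -0.38 and 0.03. For 53 of 55 members the 95% interval of the fold change lay inside a 2-fold change in either direction, the exceptions being Pttg1 and Hmmr. That is 96.4%, against 80.3% of all tested genes. Intervals were also narrower in the members, whose median SE was 0.14 against 0.17 for all tested genes. The split of calls depends on scaling, with 2 higher and 9 lower when the total library size is used. Over all tested genes 3.94% were then called higher and 2.89% lower. That scaling moves the median of all genes from -0.02 to -0.16 and that of the members to -0.28.

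**Figure D1:**
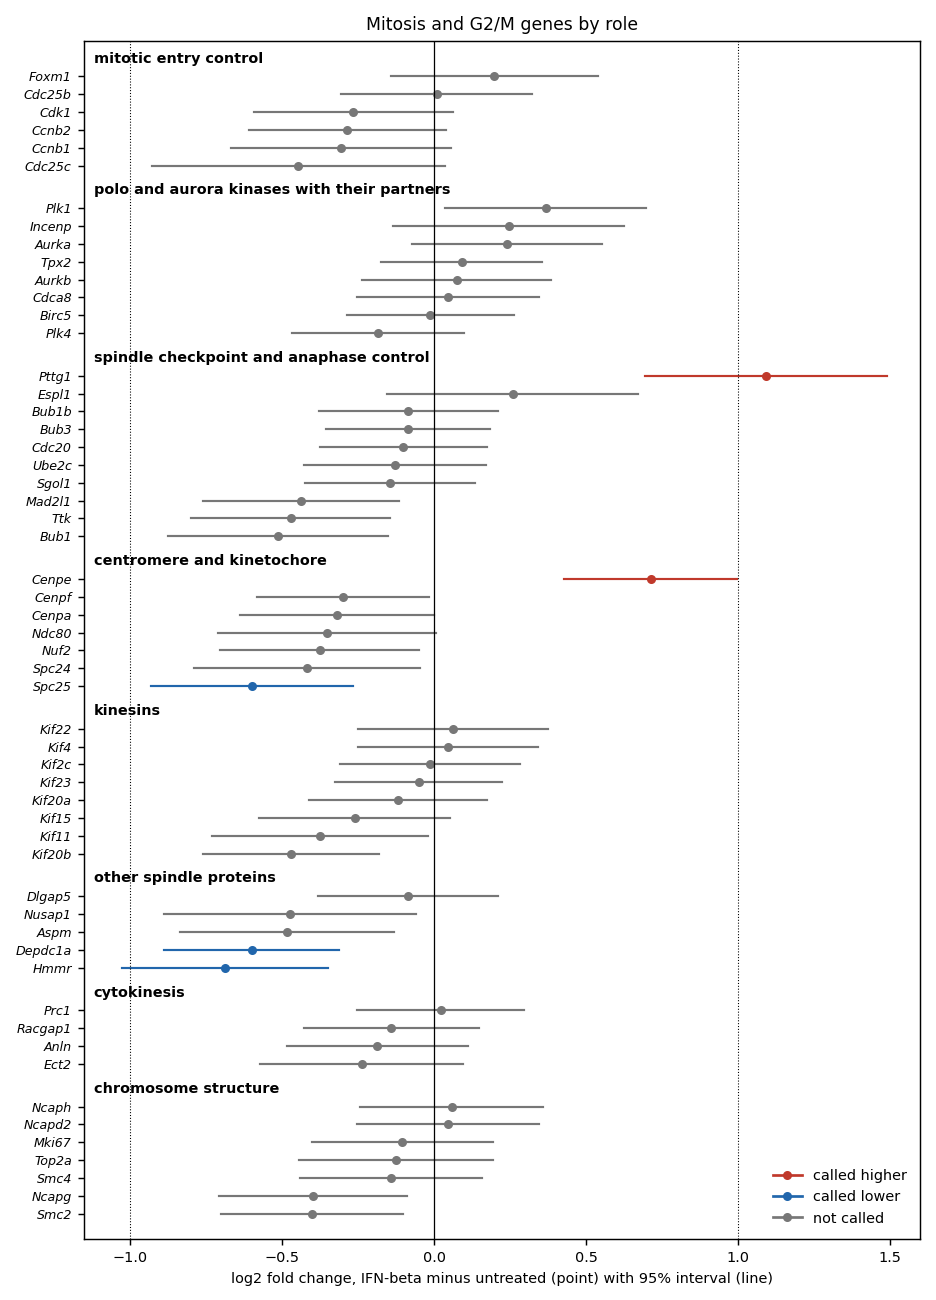
Log2 fold change (IFN-beta minus untreated) of each of the 55 members, grouped by role, as a point with its 95% interval as a line, from 2 libraries per group. Called genes are red (higher) or blue (lower), dotted lines mark a 2-fold change, and only the intervals of Pttg1 (right) and Hmmr (left) cross them.

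The untreated replicates differed from each other across the members. Untreated replicate 2 was below untreated replicate 1 for 42 of 55 members, with a median log2 ratio of -0.20, while over all tested genes 49.1% were below and the median was 0.01. The IFN-beta replicates did not part in this way (28 of 55 members lower in replicate 2, median -0.004). The mean of the IFN-beta libraries lay a median of -0.25 from untreated replicate 1 and -0.05 from untreated replicate 2. In summed level, the members held 9999 and 8561 CPM untreated and 8137 and 8236 CPM after IFN-beta. Both treated sums were below both untreated ones, and untreated replicate 2 was closer to them than to untreated replicate 1. Leaving out a library moved the members' median, to -0.25 without untreated replicate 2 and -0.03 without untreated replicate 1. Over all tested genes these medians were 0.004 and -0.002. Without IFN-beta replicate 1 the members' median was -0.14, and without IFN-beta replicate 2 it was -0.13, against -0.02 over all tested genes in each case. The number of calls also moved, both in the members and over all genes.

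**Figure D2:**
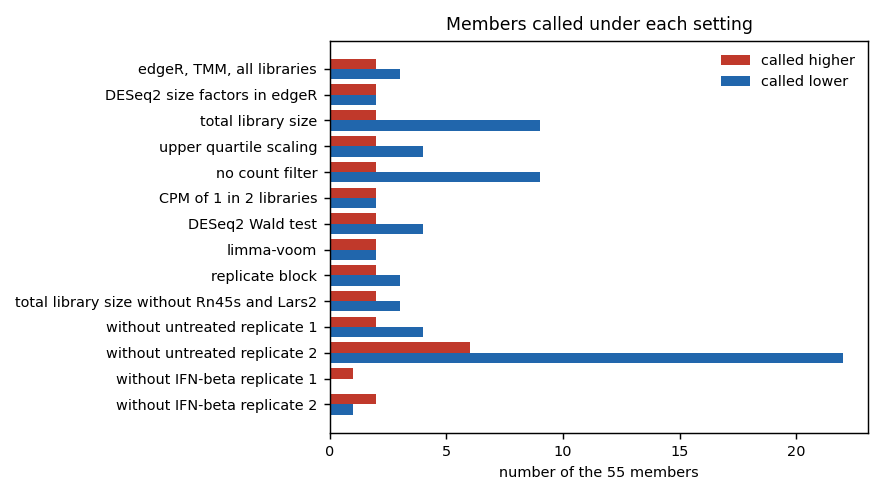
Number of the 55 members called higher (red bars) and lower (blue bars) under the reported edgeR fit, the top row, and each of 13 alternatives (rows); the horizontal axis counts members from 0. Higher calls are 2 in most rows. Lower calls vary most in the rows with a library left out, where calls over all genes vary as well.

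**Figure D3:**
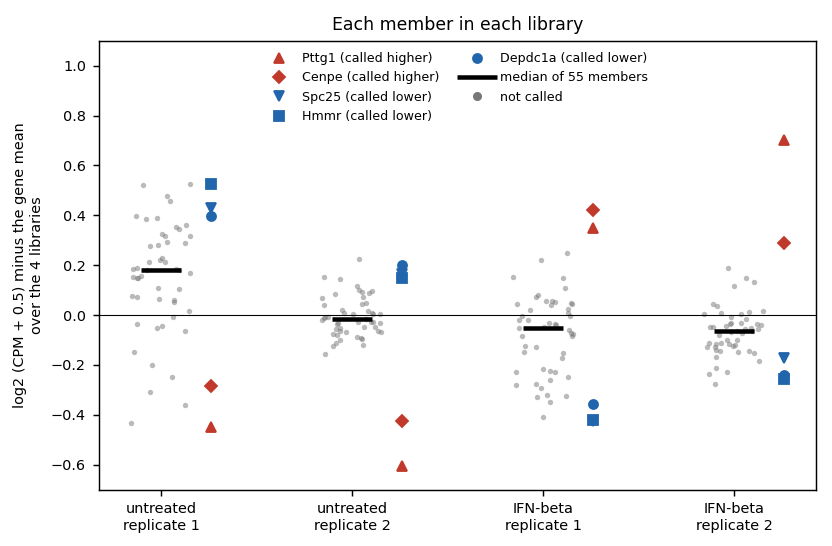
Each member's log2 (CPM + 0.5) minus its mean over the 4 libraries (vertical axis), by library (horizontal axis); grey points are the 50 members not called, coloured symbols the 5 called, and black bars the median of all 55. The median is 0.18 in untreated replicate 1 and -0.02, -0.05 and -0.06 in the other libraries, in the order shown.

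Pttg1 had the largest fold change of the 55. Securin binds and inhibits separase until anaphase, and is degraded through the anaphase-promoting complex. Pttg1 was at 13.8 and 12.4 CPM in the untreated libraries and at 24.4 and 31.3 CPM after IFN-beta, from 266, 326, 436 and 621 counts. Both treated values were above both untreated ones (log2 fold change 1.09 ± 0.18 SE, 95% interval 0.70 to 1.49, adjusted p = 0.00418 by edgeR). The call held under all 13 alternative settings, with adjusted p-values from 1.3e-08 to 0.0293.

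Cenpe encodes a large plus-end-directed kinesin that sits on the kinetochore and helps chromosomes align at the spindle equator. It was at 292 and 264 CPM untreated and at 476 and 434 CPM after IFN-beta. The lower treated library stood well above the higher untreated one (log2 fold change 0.71 ± 0.13 SE, interval 0.43 to 0.997, adjusted p = 0.00779 by edgeR). The call was lost in 1 of 13 alternatives, without IFN-beta replicate 1 (adjusted p = 0.105, the highest of a range that began at 1.68e-06).

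Among the genes that fell, Hmmr had the largest log2 fold change in size. Its protein binds microtubules and works with TPX2 in spindle assembly. Hmmr was at 251 and 193 CPM untreated and at 129.6 and 146 CPM after IFN-beta (log2 fold change -0.69 ± 0.15 SE, interval -1.03 to -0.35, adjusted p = 0.0262 by edgeR). Both treated libraries were below both untreated ones, although the untreated pair was further apart than the treated pair. It was no longer called in 1 of 13 alternatives, without IFN-beta replicate 1 (adjusted p = 0.198, the highest of a range that began at 1.75e-10).

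Depdc1a was at 270.4 and 236 CPM untreated and at 160.3 and 173 CPM treated (log2 fold change -0.60 ± 0.13 SE, adjusted p = 0.0233 by edgeR). The groups were separate, and each pair of replicates lay close together. The call was lost without either IFN-beta replicate (adjusted p = 0.344 without replicate 1 and 0.102 without replicate 2), and the lowest adjusted p over the alternatives was 6.47e-07. Spc25, one of 4 subunits of the NDC80 complex that grips microtubule ends, was at 99.95 and 83.2 CPM untreated and at 55.1 and 65.7 CPM treated (log2 fold change -0.60 ± 0.15 SE). Its adjusted p of 0.0491 by edgeR lay at the threshold. Over 13 alternatives the adjusted p ran from 5.2e-07 to 0.572, and the call was lost in 5: without IFN-beta replicate 1, without IFN-beta replicate 2, with DESeq2 size factors, with the CPM filter and with limma-voom.

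**Figure D4:**
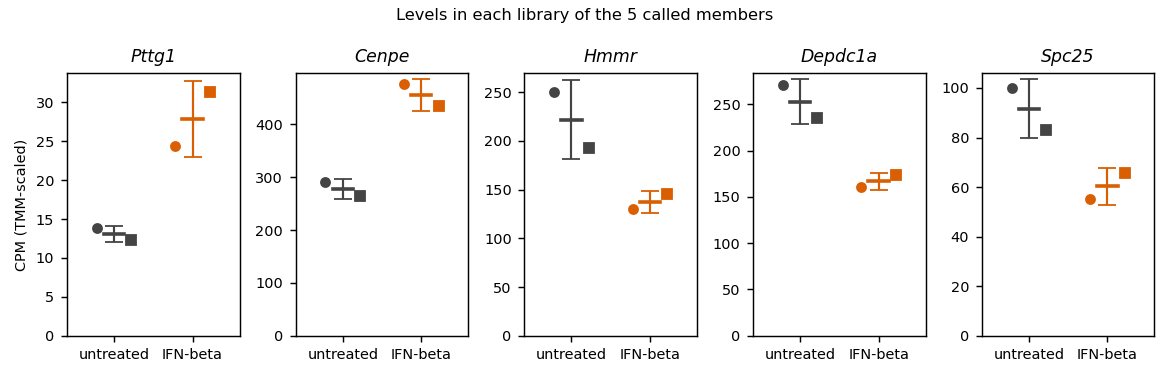
CPM (TMM-scaled, axis from 0) of the 5 called members in untreated and IFN-beta libraries; circles are replicate 1, squares replicate 2, thick bars the mean and error bars the SD (n = 2 libraries per group). Pttg1 and Cenpe have both IFN-beta libraries above both untreated ones, and Hmmr, Depdc1a and Spc25 have both below.

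Promoters of G2 and M genes often carry CCAAT boxes, which NF-Y binds, and the cell cycle genes homology region (CHR), through which DREAM and B-MYB complexes bind. RefSeq promoters on GRCm38.p6 were matched to 46 members, 3 of them with 2 start sites, giving 49 promoters; Cdc25c, Foxm1, Aurkb, Incenp, Tpx2, Spc24, Kif20a, Dlgap5 and Smc4 were not matched. In the 250 bases before the start, on both strands, CCAAT was found in 36 of 49 member promoters (73.5%), against 33.9% of all 32851 promoters. The CHR, searched as TTTGAA or TTCGAA, was found in 21 (42.9%), against 17.2% of all. A GAAA repeat, 2 copies of GAAA with any 2 bases between them, as in interferon response elements, was found in 2 (4.08%), against 2.98% of all. In the 100 bases nearest the start the shares were 63.3%, 26.5% and 0%, against 18.9%, 6.13% and 0.983% of all promoters. A match of letters is a description, not a bound site, and the list was chosen for genes of this kind.

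The last 130 bases before the start are printed for the 5 called members, so that the genes that rose can be set beside those that fell, and for Cdk1 as a gene of the same set with both motifs. Capitals mark CCAAT, CHR or GAAA repeat letters on either strand (ATTGG and TTCAAA are the reverse strand forms).
Pttg1 (chr11:43425982-43426111, minus strand): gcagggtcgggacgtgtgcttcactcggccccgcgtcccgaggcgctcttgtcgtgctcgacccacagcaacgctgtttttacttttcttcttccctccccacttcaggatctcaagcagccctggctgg
Cenpe (chr3:135212433-135212562, plus strand): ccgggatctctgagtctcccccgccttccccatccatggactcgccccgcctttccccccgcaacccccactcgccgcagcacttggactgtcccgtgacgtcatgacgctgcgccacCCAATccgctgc
Hmmr (chr11:40733438-40733567, minus strand): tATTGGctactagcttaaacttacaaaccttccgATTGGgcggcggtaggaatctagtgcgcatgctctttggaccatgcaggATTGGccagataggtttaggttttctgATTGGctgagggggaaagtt
Depdc1a (chr3:159495303-159495432, plus strand): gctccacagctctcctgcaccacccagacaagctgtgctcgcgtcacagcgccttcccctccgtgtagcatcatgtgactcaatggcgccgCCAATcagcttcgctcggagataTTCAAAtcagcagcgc
Spc25 (chr2:69206214-69206343, minus strand): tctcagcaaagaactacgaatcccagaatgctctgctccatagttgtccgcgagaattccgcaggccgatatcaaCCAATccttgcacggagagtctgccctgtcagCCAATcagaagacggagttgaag
Cdk1 (chr10:69352913-69353042, minus strand): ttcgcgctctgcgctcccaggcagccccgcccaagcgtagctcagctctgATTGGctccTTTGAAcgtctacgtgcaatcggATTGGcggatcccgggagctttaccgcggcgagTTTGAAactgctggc
In these 130 bases Pttg1 has none of the motifs, Cenpe has 1 CCAAT, Hmmr 4 CCAAT in the reverse form, Spc25 2 CCAAT, Depdc1a 1 CCAAT and a CHR beginning 16 bases before the start, and Cdk1 2 CHR and 2 CCAAT. Both genes that rose thus have 0 CHR matches in this stretch, as do Hmmr and Spc25, which fell.

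Genes of mitotic entry were not called. The B-type cyclin gene Ccnb1 was at 353 and 252 CPM untreated and at 239.6 and 250.2 CPM treated, and Ccnb2 at 71.2 and 57.4 CPM against 52.4 and 53.1 CPM (log2 fold change -0.28 ± 0.14 SE, adjusted p = 0.334 by edgeR). For both cyclins the treated libraries were below both untreated ones, but untreated replicate 2 was closer to them than to untreated replicate 1. Cdk1, their kinase partner, was at 443 and 417 CPM untreated and at 312 and 403 CPM treated (-0.27 ± 0.15, adjusted p = 0.378). Among the phosphatase genes that activate Cdk1, Cdc25c was at 30.6 and 19.3 CPM against 19.2 and 17.3 CPM (-0.45 ± 0.22, adjusted p = 0.311), while Cdc25b overlapped between groups (0.01). Foxm1, a transcription factor that drives this gene set, was at 0.20 and also overlapped. At an unadjusted p below 0.05, 0 were higher and 0 lower, against 9.60% and 8.56% of all tested genes. DESeq2 and limma-voom called 0. Of the 6 genes, 4 had both treated libraries below both untreated ones and 0 had both above, against 26.8% and 23.9% of all tested genes. Without untreated replicate 2 the log2 fold changes of Ccnb1, Ccnb2 and Cdc25c were -0.53, -0.43 and -0.74. Without untreated replicate 1 they were -0.02, -0.10 and -0.06.

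The polo and aurora kinases and their partners were also not called, and more of them lay above 0 than below. Plk1, which acts in spindle assembly and mitotic exit, was at 26.8 and 31.9 CPM untreated and at 38.9 and 36.9 CPM treated (log2 fold change 0.37 ± 0.15 SE, adjusted p = 0.226 by edgeR). Aurka, the spindle pole kinase, was at 55.4 and 66.1 CPM against 68.5 and 75.02 CPM (0.24 ± 0.14, adjusted p = 0.404), and Tpx2, its activator, at 174 and 179 CPM against 192 and 185 CPM (0.09 ± 0.12, adjusted p = 0.735). Of the chromosomal passenger complex, Incenp was at 0.25, Aurkb at 0.07, Cdca8 at 0.05 and Birc5 (survivin) at -0.01. Plk4, the kinase of centriole duplication, was at -0.18. At an unadjusted p below 0.05 only Plk1 was past (higher), where 9.60% of all tested genes were higher and 8.56% lower. DESeq2 and limma-voom called 0. In all, 6 of 8 were above 0, with a median of 0.08, against 5743 of 12128 and -0.02 for all tested genes. Both treated libraries were above both untreated ones in 5 of 8 and below them in 1. Among all tested genes these shares were 23.9% and 26.8%. With total library size scaling, however, 3 of 8 were above 0 and the median was -0.06. Without untreated replicate 2 the log2 fold changes of Plk1, Aurka and Incenp were 0.50, 0.38 and 0.50. Without untreated replicate 1 they were 0.27, 0.14 and 0.06.

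Among spindle checkpoint genes, Ttk, Mad2l1 and Bub1 had lower values, and none of them was called. Ttk, which encodes the checkpoint kinase MPS1, was at 75.001 and 63.5 CPM untreated and at 45.96 and 53.8 CPM treated (log2 fold change -0.47 ± 0.15 SE, adjusted p = 0.117 by edgeR). Mad2l1, whose protein inhibits the anaphase activator CDC20, was at 217 and 218 CPM against 140.4 and 181 CPM (-0.44 ± 0.14, adjusted p = 0.138). Bub1 was at 231 and 167 CPM against 132 and 147 CPM (-0.51). In each of these 3 genes both treated libraries were below both untreated ones. Of the 10 checkpoint and anaphase genes, 6 lay so and 1 had both above, against 26.8% and 23.9% of all tested genes. All 3 were called lower by edgeR without a count filter, where 2.28% of all tested genes were. Bub1 and Ttk were also called with total library size scaling (2.89% of all tested genes). No other alternative that kept all libraries called them. The remaining checkpoint genes Bub1b (-0.08) and Bub3 (-0.09) were closer to 0.

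Anaphase genes other than Pttg1 were near their untreated levels. Cdc20, the activator of the anaphase-promoting complex, was at -0.10, Ube2c, which hands ubiquitin to it, at -0.13 and Sgol1, the protector of centromeric cohesin, at -0.14. Espl1, the separase gene whose product securin inhibits, was at 33.0 and 49.4 CPM untreated and at 49.7 and 49.0 CPM treated (log2 fold change 0.26 ± 0.18 SE, adjusted p = 0.4996 by edgeR). Its treated libraries lay beside untreated replicate 2. On the log2 scale their mean was 0.58 from untreated replicate 1 and -6.85e-05 from untreated replicate 2. No alternative that kept all libraries called Espl1. The difference between Pttg1 and Espl1 was not tested.

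In the kinetochore group untreated replicate 2 was below untreated replicate 1 in all 7 genes (median log2 ratio -0.24). Cenpe had both treated libraries above both untreated ones, as did 23.9% of all tested genes. The other 6 of 7 genes had both treated libraries below both untreated ones, against 26.8% of all tested genes. The 4 subunits of the NDC80 complex were all on that side: besides Spc25, Ndc80 was at 107 and 78.6 CPM against 69.8 and 75.4 CPM (log2 fold change -0.35), Nuf2 at 129 and 100.5 CPM against 85.5 and 90.9 CPM (-0.38), and Spc24 at 23.7 and 20.1 CPM against 15.5 and 17.3 CPM (-0.42). Of these only Spc25 passed the test, and the other adjusted p-values lay between 0.2095 and 0.283. Cenpa, the histone H3 variant that marks the centromere, was at 106 and 89.8 CPM against 72.0 and 84.6 CPM (-0.32 ± 0.14, adjusted p = 0.275 by edgeR), and Cenpf, a large protein of the kinetochore corona, was at -0.30.

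Over all 55 members, 27 had both treated libraries below both untreated ones and 7 had both above, which is 49.1% and 12.7%. Among all tested genes these shares were 26.8% and 23.9%. At an unadjusted p below 0.05, 15 members were lower and 3 higher (27.3% and 5.45%), against 8.56% and 9.60% of all tested genes. These shares describe the list beside the other genes and are not a test of it, since the members share the same 4 libraries and the untreated pair differed in the same set.

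None of the 8 kinesin genes of this group, which leaves out Cenpe, was called by edgeR. Kif20b was closest, at 279 and 249 CPM untreated and at 179 and 202 CPM treated (log2 fold change -0.47 ± 0.13 SE, adjusted p = 0.0757 by edgeR), and it passed in 5 of 13 alternatives. Kif11, the motor that pushes spindle poles apart, was at 362 and 267 CPM against 229 and 256 CPM (-0.38 ± 0.16, adjusted p = 0.249), and Kif15, which supports it, at -0.26. In Kif11 the gap between the untreated libraries was wider than that between untreated replicate 2 and either treated library. The others were smaller: Kif20a at -0.12, the centralspindlin motor Kif23 at -0.05, the microtubule depolymerase Kif2c at -0.01, and the chromosome-arm motors Kif4 at 0.05 and Kif22 at 0.06, with the signs of these last 2 turning under total library size or upper quartile scaling. The groups overlapped in 5 of the 8 kinesins, and in 5979 of all 12128 tested genes. At an unadjusted p below 0.05, 0 kinesins were higher and 2 lower, against 9.60% and 8.56% of all tested genes. DESeq2 called Kif20b lower.

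All 5 of the other spindle genes were below 0, as were 52.6% of all tested genes. Untreated replicate 2 was below untreated replicate 1 in all 5 (median log2 ratio -0.38). In 4 of 5 both treated libraries were below both untreated ones and in 0 above, against 26.8% and 23.9% of all tested genes. At an unadjusted p below 0.05 by edgeR, 4 were lower and 0 higher, against 8.56% and 9.60% of all tested genes. Besides Hmmr and Depdc1a, Aspm, which acts at spindle poles, was at 153 and 112 CPM untreated and at 94.8 and 94.5 CPM treated (log2 fold change -0.48, adjusted p = 0.133 by edgeR). Nusap1, a microtubule bundling protein, was at 150.2 and 98.9 CPM against 85.2 and 93.9 CPM (-0.47, adjusted p = 0.211). Nusap1 had the second widest gap of the members between the untreated libraries in the negative direction, with a log2 ratio of -0.60. Dlgap5, which stabilises spindle fibres, overlapped between groups (-0.09).

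Cytokinesis genes gave no call. Ect2, which activates RhoA at the division plane, was at 271 and 214 CPM untreated and at 221 and 189.8 CPM treated (log2 fold change -0.24 ± 0.15 SE, adjusted p = 0.438 by edgeR). Anln, the contractile ring scaffold anillin, was at 430.1 and 362.5 CPM against 361 and 336 CPM (-0.19 ± 0.13, adjusted p = 0.501). Racgap1, the partner of Kif23 in centralspindlin, was at -0.14, and the midzone bundler Prc1 at 0.02 (below 0 with total library size scaling). Groups overlapped in 3 of the 4 genes (5979 of all 12128 tested genes), and Anln was separate only narrowly. At an unadjusted p below 0.05, 0 were higher and 0 lower, against 9.60% and 8.56% of all tested genes. DESeq2 and limma-voom also called 0.

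Among genes of chromosome structure, Smc2 and Ncapg had lower values and the rest were close to 0. Smc2, an ATPase core subunit of condensin, was at 600.1 and 503 CPM untreated and at 413 and 422 CPM treated (log2 fold change -0.40 ± 0.13 SE, adjusted p = 0.143 by edgeR). Ncapg, a condensin I subunit, was at 261 and 212 CPM against 173 and 186 CPM (-0.40 ± 0.14, adjusted p = 0.159). The other condensin genes Smc4 (-0.14), Ncapd2 (0.05) and Ncaph (0.06) had overlapping groups, and the last 2 were below 0 with total library size scaling. Whether the subunits differed from each other was not tested. Top2a, the mitotic topoisomerase, was at 938 and 759 CPM against 771 and 785 CPM (-0.13 ± 0.14, adjusted p = 0.688). Mki67, which encodes the proliferation marker Ki-67, was at 525 and 457 CPM against 479.9 and 434 CPM (-0.10 ± 0.13, adjusted p = 0.729, interval -0.40 to 0.19). In both of these the groups overlapped. At an unadjusted p below 0.05, 0 of the 7 genes were higher and 2 lower, against 9.60% and 8.56% of all tested genes. DESeq2 and limma-voom called 0.

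Other genes of cell division, in 7 lists outside the 55, gave 2 calls higher and 1 lower among 143 tested. These are 1.40% and 0.699%, against 4.73% and 0.495% of all tested genes. Kif18a, a kinesin that limits chromosome movement at the spindle equator, fell, from 149 and 125 CPM to 80.3 and 92.0 CPM (log2 fold change -0.67 ± 0.14 SE, adjusted p = 0.0213 by edgeR; lost in 1 of 13 alternatives, without IFN-beta replicate 1, over a range of 1.61e-08 to 0.270). It was the single call among 33 other G2 and M genes. Of 27 genes of G1 and S phase, Ccnd3 (cyclin D3) rose, from 42.2 and 42.1 CPM to 67.4 and 62.0 CPM (0.62 ± 0.13, adjusted p = 0.0211; lost in 3 of 13 alternatives, namely total library size and leaving out either IFN-beta replicate), and Mcm6, a replication helicase subunit, rose from 256 and 212 CPM to 348 and 332 CPM (0.54 ± 0.13, adjusted p = 0.0498; lost in 8 of 13, leaving out either IFN-beta replicate and the replicate block among them).

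The remaining 5 lists had 0 calls by edgeR. In 15 genes of the anaphase-promoting complex and its regulators the smallest p belonged to the subunit gene Cdc26 (log2 fold change -0.34, adjusted p = 0.243), with 0 higher and 3 lower at an unadjusted p below 0.05, where 9.60% of all tested genes were higher and 8.56% lower. In 19 genes of DREAM, the retinoblastoma family and E2F it belonged to E2f5 (-0.42, adjusted p = 0.181; 0 and 1). In 26 other kinetochore genes it belonged to Cenpi (-0.47, adjusted p = 0.101; 0 and 7), and the median there was -0.20. In 16 cohesin and other condensin genes it belonged to Sgol2 (-0.41, adjusted p = 0.120; 0 and 3). Of 7 CDK inhibitors, Cdkn1a (p21) had 69 and 186 counts untreated and 197 and 169 treated (0.85 ± 0.29, adjusted p = 0.158; 1 and 0), and the untreated pair itself was 0.89 apart on the log2 scale. DESeq2 gave 2 higher and 1 lower over the 7 lists, and limma-voom the same counts, in both cases with 0 in these 5.

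**Figure D5:**
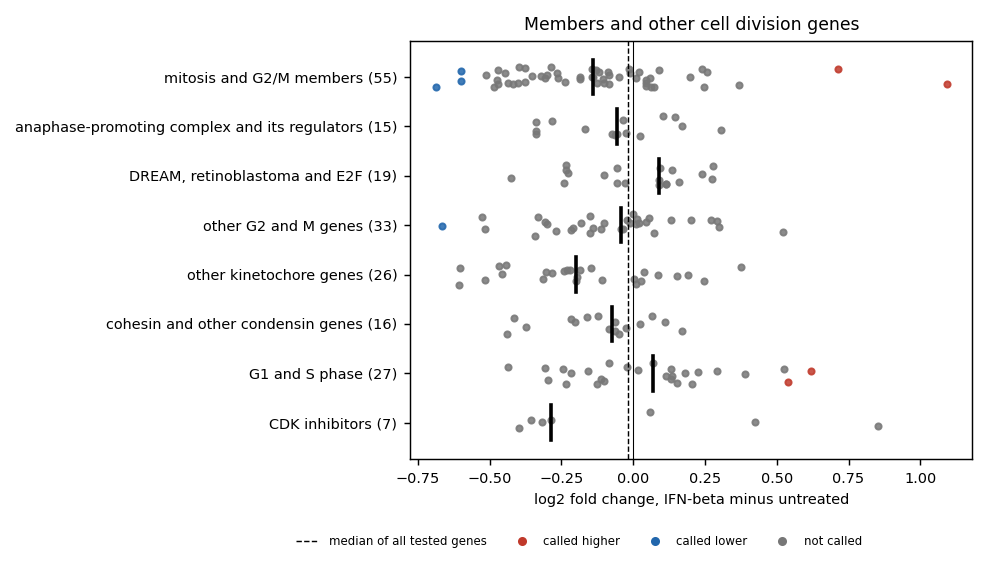
Log2 fold change (IFN-beta minus untreated, horizontal axis) of the 55 members and of the tested genes of 7 other cell division lists (rows, number of genes in brackets); each point is a gene, black bars are list medians, and the dashed line is the median of all tested genes at -0.02. The members' median is -0.14, that of other kinetochore genes -0.20 and that of G1 and S phase genes 0.07.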

How the data were processed

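RNA-seq counts of 2 untreated and 2 IFN-beta libraries were used; 4 chromatin samples were not analysed here. The deposited values are read counts per gene symbol, 1 table per library, not normalized. Per the submitters' processing notes, TopHat2 2.0.13, HTSeq 0.7.2 and mm9 were used; the annotation and strand setting are not given in the sources used here. Per the labels' protocols, RNA was taken with Trizol and libraries made with a TruSeq RNA kit. Each table ends with summary lines (5 in number) that name no gene and were left out; gene rows held 38.7% to 42.7% of each table's total. Of the 55 members, 22 overlap another gene in the RefSeq table (GRCm38.p6) and cannot be separated from it without strand; the 5 called members do not. Counts are not per length, so levels were not compared between genes.

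All genes were tested with edgeR 4.0.16 (quasi-likelihood F test, TMM, group as the only term, minimum count 10 and minimum total 15) in R 4.3.3, adjusted by Benjamini-Hochberg over 12128 genes; a gene was called at an adjusted p below 0.05. SE is the log2 fold change divided by the square root of F, and 95% intervals use the t distribution with the moderated degrees of freedom. With 2 against 2, an exact permutation test cannot go below p = 0.333. The procedure was tested on simulated data in which genes were drawn independently of each other. Such data hold no shift shared by the members within the untreated pair. CPM is per 1e6 counts with TMM-adjusted sizes; replicate ratios add 0.5 CPM. Depth limits precision little here, since each member had at least 266 counts in every library.

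The members and lists were chosen with earlier results of these data known. All members could be named; full statistics went to those called, the 2 of each role with the smallest p and the 1 with the highest CPM, and, in other lists, to called genes or the smallest p. Ccnb1, Espl1, Cenpa, Aspm, Nusap1, Mki67, Ndc80, Nuf2, Spc24 and Bub1 were given further values after these were seen. Alternatives were DESeq2 size factors, total library size, upper quartile scaling, no filter, CPM of 1 in 2 libraries, DESeq2 1.42.0, limma-voom (limma 3.58.1), a replicate block and each library left out. A total library size without Rn45s and Lars2 was added after the data were seen.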

Additional observations from a re-analysis of the deposited data

How the results depend on the processing

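The count of members called higher was 2 under each alternative that kept all libraries, and 1 to 6 with a library left out; the count called lower was 9 with total library size and 9 without a count filter, 2 to 4 under the others that kept all libraries, and 0 to 22 with a library left out. Over all tested genes 2.28% were called lower without a count filter and 2.89% with total library size, against 0.495% in the reported fit. The shares called higher were 5.16%, 3.94% and 4.73%. Leaving out a library leaves 1 group with a single library that is assumed to vary like the other group. Calls over all genes moved in those fits as well, so their member counts do not describe the members alone. The median of the members was -0.28 with total library size and between -0.21 and -0.13 under the others that kept all libraries, and -0.25 to -0.03 with a library left out, nearest to 0 without untreated replicate 1. The 5 called members kept their direction in all 13 alternatives; 19 of the others changed sign in at least 1. With the replicate block the members gave 2 higher and 3 lower and the same 5 genes, and the 7 other lists gave 2 higher, Mcm6 not among them, and 2 lower; same-numbered libraries did not deviate together (correlation of deviations -0.09 over all genes) and share only a number.

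The 7 other lists gave, higher, 1 with DESeq2 size factors, upper quartile scaling, CPM of 1 in 2 libraries or total library size without Rn45s and Lars2, 0 with total library size, 5 without a filter and 0 to 13 with a library left out (most without untreated replicate 2, fewest without IFN-beta replicate 1). Lower, they gave 7 with total library size, 8 without a filter and 0 to 42 with a library left out, at the same libraries. Over all genes, lower calls were 350 with total library size, 381 without a filter, 128 with upper quartile scaling, 103 with DESeq2, 155 with the replicate block and 24 to 1728 with a library left out; higher calls were 863 without a filter and 470 to 1885 with a library left out. In the 100 bases nearest the start, 26.5% of member promoters held the CHR and 0% the GAAA repeat; that window is shorter. The cause of the other shifts was not tested.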

Other observations

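The genes next to the called members, chosen after the members' values were seen, were not called where they could be tested (edgeR, Benjamini-Hochberg over all genes). Slu7, a splicing factor gene beside Pttg1, was at a log2 fold change of 0.20 ± 0.14 SE (adjusted p = 0.490). Bdh2, beside Cenpe, was at -0.65 ± 0.26 (adjusted p = 0.227) on 92, 95, 44 and 56 counts, on the other side of 0 from Cenpe. Nudcd2, which lies head to head with Hmmr, was at -0.28 ± 0.13 (adjusted p = 0.295), with 119 and 119 CPM untreated and 90.8 and 106 CPM treated, and Mat2b, on the other side of Hmmr, at 0.17 ± 0.19. Lrrc7, beside Depdc1a, was at 0.38 ± 0.29. The neighbours of Spc25 were at 0 to 2 counts in every library.

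Kif4-ps, a Kif4 pseudogene named in the tables, had 0 counts in all 4 libraries.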
